A study of Mus musculus with 12 samples.

Results

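The genes described here build and equip the axonal cytoskeleton: 38 listed genes for tubulins, microtubule-associated proteins, stathmins, collapsin response mediator proteins, neurofilaments, kinesin-1 heavy chains and the growth cone protein Gap43, of 22667 genes in the deposited tables. They were chosen by name, as members of known cytoskeletal and growth cone families. All 38 were found by matching Ensembl IDs to gene symbols, and all 38 passed the filter on low counts, which 16111 genes passed. They fall into 10 roles, which order the account below.

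Microtubules are hollow polymers of alpha and beta tubulin pairs, nucleated from gamma tubulin complexes, and in a growing axon they serve both as a scaffold and as tracks for transport. Microtubule-associated proteins, the doublecortin family and the collapsin response mediator proteins bind and stabilise them or their subunits, while stathmins bind free tubulin and favour disassembly. Neurofilaments are the intermediate filaments of neurons, which accumulate in axons as these mature, and the growth cone at the axon's tip carries Gap43 on its inner membrane.

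The series measured messenger RNA in mouse cortex and hippocampus at stage E18.5, shortly before birth, in controls labelled wild type and in embryos labelled knockout (KO) for Srrm4, also named nSR100, a splicing regulator of neurons. The KO line was derived from EUCOMM stem cells with a conditional nSR100lox allele, aggregated with ICR morulae, maintained on C57Bl/6N. Crossing to a CMV-cre line from the Jackson Laboratory, B6.C-Tg(CMV-cre)1Cgn/J, removed exons 7 and 8. Cre under the cytomegalovirus promoter acts broadly and in the germ line, so the deletion was not restricted to neurons or to brain. Each of the 4 groups, given by tissue and genotype, holds 2 libraries. The labels do not say which libraries share an embryo. A p-value here measures a difference only against how far libraries of the same group lie apart. That spread was estimated over all 4 groups together and also drew on other genes. Part of it may be technical.

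Values are given for replicate 1 and then replicate 2 of a group. Levels are the authors' RPKM, reads scaled to gene length and library depth, and differences are log2 fold changes with standard errors (SE) from edgeR's quasi-likelihood test on counts. A difference is said to pass at a Benjamini-Hochberg adjusted p under 0.05 over all 16111 genes.

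Some tubulin genes are near-identical copies, which limits how reads can be assigned to them. The last 60 coding bases before the stop codon are shown for the beta tubulin pair Tubb2b and Tubb2a, the beta tubulin with the highest RPKM and its close copy, from GENCODE M21 on GRCm38, 5′ to 3′ on the coding strand, in an exon of each gene. Capitals in the second sequence mark bases that differ from the first.
Tubb2b (chr13:34127474-34127533, minus strand): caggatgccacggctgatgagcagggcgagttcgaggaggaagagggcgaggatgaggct
Tubb2a (chr13:34074471-34074530, minus strand): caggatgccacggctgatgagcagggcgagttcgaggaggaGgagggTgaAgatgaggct
Tubb2b and Tubb2a share 96.5% of their 1335 coding bases and differ at 3 of these 60. For contrast, the same stretch of Tubb3, the neuron-specific beta tubulin, has a different coding length (1350 bases) and is shown without marks.
Tubb3 (chr8:123421620-123421679, plus strand): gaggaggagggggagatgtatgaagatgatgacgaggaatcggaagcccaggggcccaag

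The deposited counts and RPKM together imply a length for each gene, which was short for several of these copies. It was 347 bases for Tuba1a, 19.2% of its longest coding transcript of 1803 bases in GENCODE M21, and 408 bases for Tuba1b. For Tubb2a it was 607 and for Tubb2b 946 bases. By contrast, for 10 members, among them Mapt, Gap43 and Stmn4, the implied length was within 1 base of the number of 50-base windows that a transcript of that gene shares with no other gene. The levels of Tuba1a, Tuba1b, Tuba1c, Tubb2a and Tubb2b therefore rest on a part of each transcript, and their order against other genes is uncertain. Tuba4a shares 1330 windows with Stk16 on the opposite strand. Its implied length of 1391 bases was near the 1417 windows that a transcript of it shares with no other gene, and below the 2791 windows of its longest transcript. Nefl shares 1059 windows with Nefm, and its implied length of 3331 bases matched all 3331 windows, not the 2272 in no other gene. For Nefm it was 3282 bases, near the 3285 windows that a transcript of it shares with no other gene. Stmn1 shares 351 windows with Gm11223, and its implied length of 1011 bases also matched all 1011 windows. The labels do not say how reads of these shared stretches were counted.

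Library totals ranged from 58210499 to 140052443 counts, and replicate 1 was the deeper library of each group. The targeted gene Srrm4 lay at 25.2 and 24.2 RPKM in control cortex, 8.12 and 6.97 in KO cortex, 26.0 and 27.9 in control hippocampus and 5.68 and 6.16 in KO hippocampus, a log2 fold change of -1.71 (SE 0.10, adjusted p = 0.000877) in cortex and -2.22 (SE 0.10, adjusted p = 0.000254) in hippocampus. Markers of the labelled tissues were mixed. Of 10 listed for hippocampal neurons, 4 were higher in hippocampus in controls (Wnt8b, Lef1, Prox1 and Zbtb20, log2 fold changes from 2.59 to 7.47) and 4 lower (Mef2c, Nr4a2, Etv1 and Man1a, from -3.03 to -0.82), and in KO 4 were higher and 5 lower. Of 10 cortical projection neuron markers, 7 were lower in hippocampus and 2, Fezf2 and Bhlhe22, higher in both genotypes. Hippocampus KO replicate 1 stood apart: mitochondrial genes took 4.40% of its counts against 3.14% to 3.44% in the other 7, ribosomal protein genes 1.52% against 1.18% to 1.25%, and it had the lowest level of 24 of the 38 members. Values with and without it are given below.

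As a set, these genes were among the most abundant in both tissues. Of the 38, 28 were at or above the 90th percentile of mean RPKM over 21553 genes and 18 at or above the 99th, and the set took 3.46% to 3.75% of all counts in cortex and 2.76% to 3.21% in hippocampus, with the lowest share in hippocampus KO replicate 1. The median member lay between 183 and 195 RPKM in 7 libraries and at 140.4 RPKM in that one. At the other end, Tubb6, Tuba1c and Nefh had means under 10 RPKM.

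**Figure D1:**
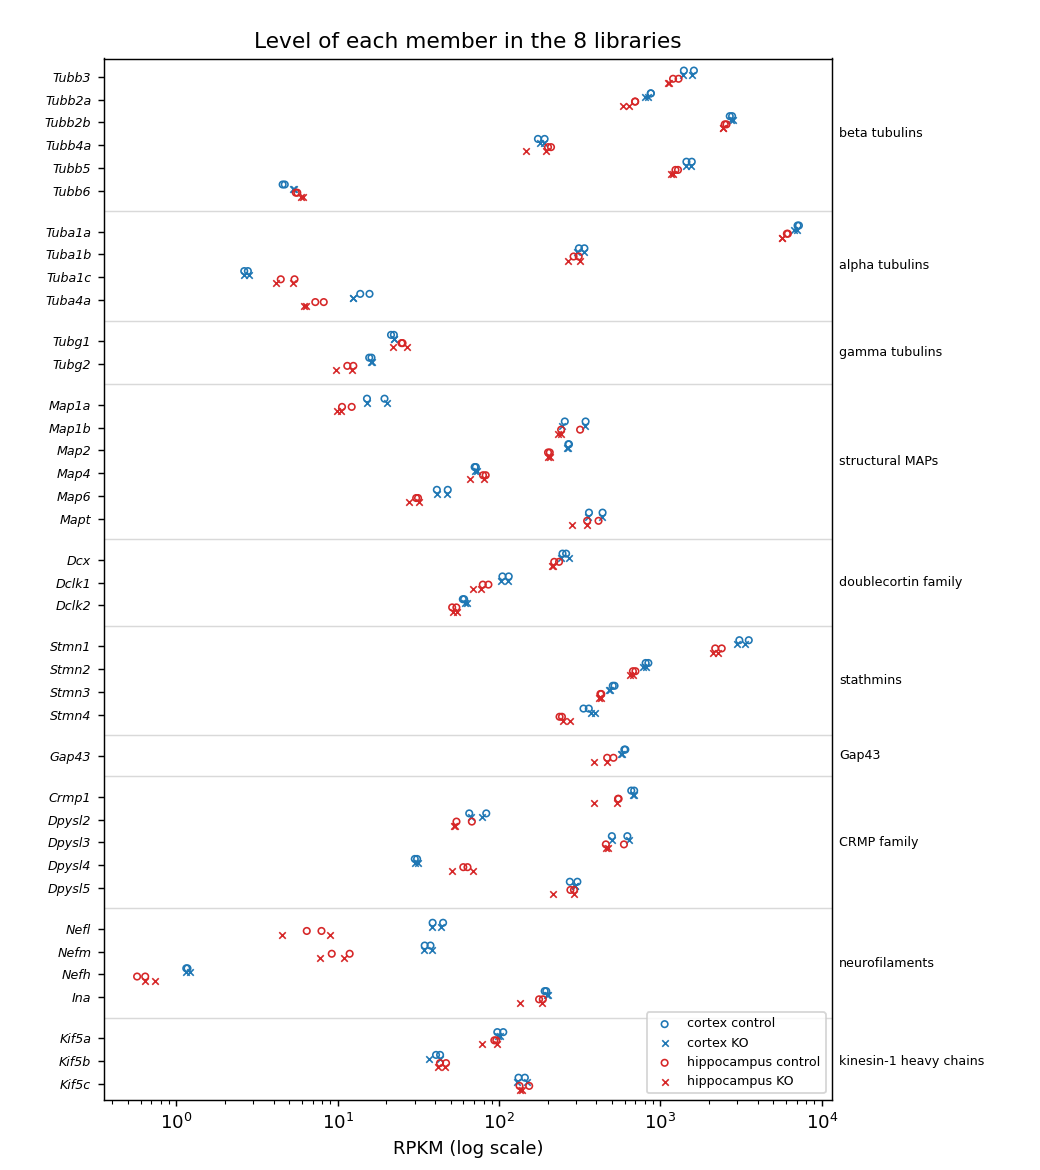
RPKM of each of the 38 members (log axis) in the 8 libraries, ordered by role; blue marks cortex, red hippocampus, circles control and crosses KO, and each symbol is 1 library. Levels run from 0.57 RPKM for Nefh in hippocampus to 7210.0 RPKM for Tuba1a in cortex, and the tissue gap is widest for Nefl and Nefm.

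Most members that differed between the tissues were lower in hippocampus, and the neurofilament genes Nefl and Nefm lay furthest below cortex. In controls 17 of 38 members passed as lower in hippocampus and 2 as higher (Dpysl4 and Tuba1c). The background in that comparison was 33.9% of genes called, 14.9% of genes lower and 19% higher. In the KO libraries, which are separate from the controls, 23 members passed as lower and the same 2 as higher, against a background of 40% called, 18.8% lower and 21.2% higher. All 19 members called in controls were called in KO libraries with the same sign, and 36 of 38 had the same sign in both. The median member lay at -0.31 in controls and -0.42 in KO, against 0.01 and 0.03 over all genes tested. In bulk tissue, fewer cells of a type and less RNA per cell cannot be told apart.

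Of the 19 calls in controls, 8 passed in all 17 alternative analyses (Nefl, Nefm, Nefh, Tuba4a, Map2, Stmn1, Stmn4 and Dpysl4), as did 15 of 25 in KO, and all 19 and 25 had the same sign in all 17. Leaving out 1 library lowered the count to 9 members (cortex control replicate 1), 10 (hippocampus control replicate 2) or 12 (cortex control replicate 2) in controls, and to 15 (cortex KO replicate 1) in KO. Groups that did not overlap were common everywhere: 31 of 38 members had control libraries that did not overlap between tissues, against 68.2% of all genes, and 32 of 38 KO libraries, against 68.4%. Scaling by library totals alone moved the median of all genes in the KO comparison from 0.03 to 0.14, and the share of called genes that were higher from 53.0% to 65.8% (from 56.1% to 65.5% in controls), and the called members kept their sign.

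Cell type markers moved with this comparison. Of 14 radial glia and cycling progenitor markers, 12 were higher in hippocampus in controls and 12 in KO, none lower, and their summed level was 1636 to 1748 CPM (counts scaled to library size) in cortex and 2696 to 3258 CPM in hippocampus. All 6 intermediate progenitor markers were higher in both, with sums of 167 to 202 CPM in cortex and 495 to 604 CPM in hippocampus. By contrast, 9 of 10 interneuron markers were lower in both, with sums of 800.3 to 859 CPM against 433 to 555 CPM. None of these lists had a marker at 0 in all libraries. The part of these differences in the members' results was not tested.

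**Figure D2:**
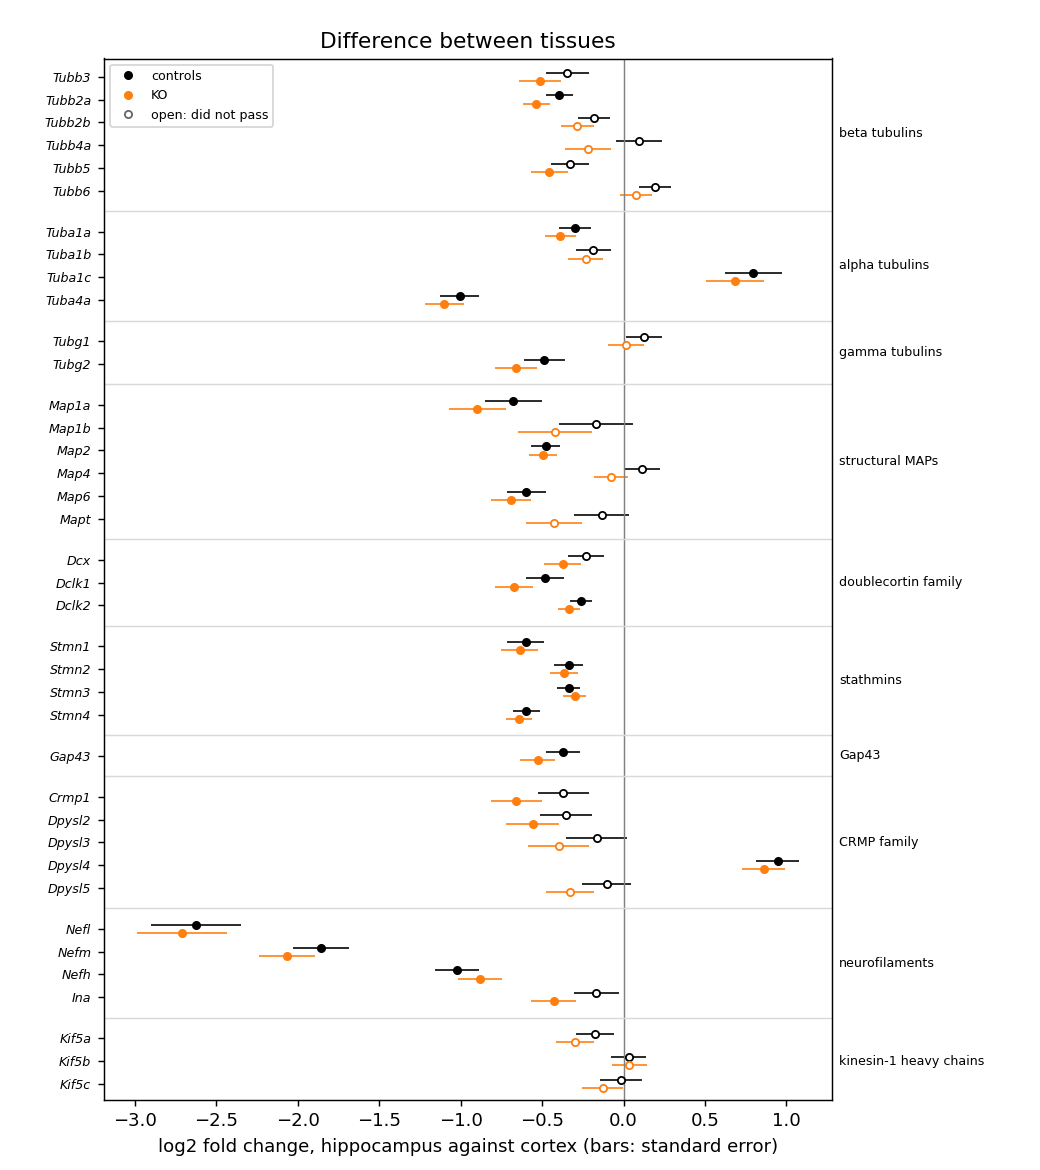
Log2 fold change of hippocampus against cortex for each member, in controls (black) and in KO (orange), with standard errors; filled points passed and open points did not. Nefl and Nefm lie farthest to the left, at -2.71 to -1.86, and Dpysl4 and Tuba1c are the 2 filled points to the right of 0.

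Among the beta tubulins, which pair with alpha tubulin in every subunit, Tubb2b had the highest RPKM. Tubb2b lay at 2778 and 2687 RPKM in control cortex, 2818 and 2722 in KO cortex, 2566 and 2502 in control hippocampus and 2449 and 2451 in KO hippocampus. Its hippocampal libraries were all below its cortical ones, but the difference did not pass, at -0.18 (SE 0.10, adjusted p = 0.209) in controls and -0.28 (SE 0.10, adjusted p = 0.0548) in KO. Tubb2a, its close copy, passed in both, at -0.40 (SE 0.08, adjusted p = 0.00702) in controls and -0.54 (SE 0.08, adjusted p = 0.00145) in KO. Tubb3, the neuron-specific isotype, and the broadly expressed Tubb5 passed in KO libraries, at -0.51 and -0.46, and not in controls, at -0.34 and -0.33. The genotype by tissue interaction, which tests the gap between these values, did not pass for either gene (adjusted p = 1). The KO calls were lost without cortex KO replicate 1 for both genes, and for Tubb3 also without hippocampus KO replicate 1 (highest adjusted p = 0.104 for Tubb3 and 0.103 for Tubb5), and the Tubb2a call in controls without cortex control replicate 1 or hippocampus control replicate 2 (highest adjusted p = 0.0579). Tubb4a and Tubb6 passed in neither. As shares of the summed RPKM of the 6 genes, Tubb2b took 39.6% to 41.7% in cortex and 42.4% to 44.9% in hippocampus, and Tubb2a 12.1% to 13.2% and 10.8% to 11.9%, with no overlap between tissues.

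The alpha tubulins split in both directions. Tuba1a, the main alpha tubulin of embryonic neurons, lay at 7210.1 and 7073 RPKM in control cortex, 6976 and 6761 in KO cortex, 6158 and 6070.0 in control hippocampus and 5677 and 5634 in KO hippocampus. It held 94.5% to 95.6% of the family's summed RPKM in the 8 libraries and was lower in hippocampus, at -0.30 (SE 0.10, adjusted p = 0.0466) in controls and -0.39 (SE 0.10, adjusted p = 0.0143) in KO. It passed in 5 of 17 alternatives in controls and 13 of 17 in KO. Tuba4a lay at 15.7 and 13.8 RPKM in control cortex, 12.4 and 12.5 in KO cortex, 8.18 and 7.25 in control hippocampus and 6.17 and 6.34 in KO hippocampus. Every hippocampal library was below every cortical one, at -1.01 (SE 0.12, adjusted p = 0.0004) in controls and -1.10 (SE 0.12, adjusted p = 0.000246) in KO. Stk16, the kinase gene that overlaps it, did not pass, at 0.11 (SE 0.08, adjusted p = 0.321) and 0.06 (SE 0.08, adjusted p = 0.585). Tuba1c, a broadly expressed copy, was the only one of the 12 tubulin members that passed as higher in hippocampus. It lay at 2.77 and 2.63 RPKM in control cortex, 2.63 and 2.83 in KO cortex, 5.39 and 4.43 in control hippocampus and 5.24 and 4.14 in KO hippocampus. The differences were 0.79 (SE 0.17, adjusted p = 0.009) in controls and 0.68 (SE 0.18, adjusted p = 0.0159) in KO. The Tuba1c call was lost without cortex control replicate 2 (adjusted p = 0.0571) or hippocampus control replicate 1 (0.0729), and in KO without cortex KO replicate 1 (0.0833) or hippocampus KO replicate 1 (0.0993).

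Gamma tubulin seeds new microtubules, and its 2 genes stood in a different balance in the tissues. Tubg1 lay at 21.4 and 22.2 RPKM in control cortex, 22.2 and 22.4 in KO cortex, 25.2 and 24.8 in control hippocampus and 21.8 and 26.8 in KO hippocampus and did not pass, at 0.13 (SE 0.11, adjusted p = 0.423) in controls and 0.02 (SE 0.11, adjusted p = 0.926) in KO. Tubg2 lay at 16.2 and 15.7 RPKM in control cortex, 16.3 and 16.0 in KO cortex, 11.4 and 12.5 in control hippocampus and 9.71 and 12.3 in KO hippocampus and was lower in hippocampus, at -0.49 (SE 0.13, adjusted p = 0.019) and -0.66 (SE 0.13, adjusted p = 0.00438). The Tubg2 call in controls was lost without any 1 of the 4 control libraries (highest adjusted p = 0.118) and in KO passed in all 17 alternatives. Tubg1 made up 56.9% to 58.7% of the pair's summed RPKM in cortex and 66.5% to 69.2% in hippocampus, with no overlap.

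The structural microtubule-associated proteins stabilise or bundle microtubules, and 3 of 6 passed as lower in hippocampus in each genotype. Mapt, which encodes tau of axons, had the highest RPKM of the 6, at 438 and 360.4 RPKM in control cortex, 434 and 356 in KO cortex, 413 and 351 in control hippocampus and 283 and 351 in KO hippocampus. Its control libraries overlapped between the tissues, and it did not pass, at -0.14 (SE 0.17, adjusted p = 0.596) in controls and -0.43 (SE 0.17, adjusted p = 0.0823) in KO. Map2, found mainly in dendrites and cell bodies, lay at 268 and 271 RPKM in control cortex, 269 and 263 in KO cortex, 206 and 201 in control hippocampus and 206 and 200.1 in KO hippocampus. Replicates of Map2 were close together and the tissues did not overlap, at -0.48 (SE 0.09, adjusted p = 0.0035) in controls and -0.49 (SE 0.09, adjusted p = 0.00276) in KO. Map6, which protects microtubules from cold and drugs, lay at 48.0 and 41.1 RPKM in control cortex, 47.2 and 41.4 in KO cortex, 31.4 and 30.6 in control hippocampus and 27.5 and 31.7 in KO hippocampus and differed by -0.60 (SE 0.12, adjusted p = 0.00601) and -0.69 (SE 0.12, adjusted p = 0.0027). Map1a, which gains on Map1b as neurons mature, lay at 19.5 and 15.2 RPKM in control cortex, 20.1 and 15.1 in KO cortex, 12.2 and 10.6 in control hippocampus and 9.88 and 10.5 in KO hippocampus and differed by -0.68 (SE 0.18, adjusted p = 0.0188) and -0.90 (SE 0.18, adjusted p = 0.00477). Calls were lost in controls for Map6 without cortex control replicate 1 (adjusted p = 0.0537), and for Map1a without that library (0.139) or without hippocampus control replicate 2 (0.109).

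Map1b and Map4 did not pass. Map1b, the early axonal member, lay at 343 and 255 RPKM in control cortex, 339 and 246 in KO cortex, 317 and 242 in control hippocampus and 230.4 and 242 in KO hippocampus. Replicate 1 was far above replicate 2 in 3 of the 4 groups, and the tissue difference of -0.17 in controls was within that spread. Map4, which is also made outside neurons, lay at 71.7 and 70.5 RPKM in control cortex, 73.0 and 70.5 in KO cortex, 82.5 and 79.5 in control hippocampus and 66.4 and 80.0 in KO hippocampus, and its difference was 0.12 in controls and -0.08 in KO.

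The doublecortin family binds microtubules in migrating neurons, and Dclk1 and Dclk2, its kinase members, passed as lower in both genotypes. Dcx lay at 260.0 and 247 RPKM in control cortex, 270.5 and 243 in KO cortex, 235 and 219 in control hippocampus and 215 and 212 in KO hippocampus. It differed by -0.23 (SE 0.11, adjusted p = 0.158) in controls, which did not pass, and by -0.37 (SE 0.11, adjusted p = 0.0304) in KO. Dclk1 lay at 115 and 105 RPKM in control cortex, 114 and 103 in KO cortex, 85.8 and 79.2 in control hippocampus and 69.2 and 77.3 in KO hippocampus and differed by -0.48 (SE 0.12, adjusted p = 0.0132) and -0.67 (SE 0.12, adjusted p = 0.00254). Dcx made up 59.5% to 60.6% of the family's summed RPKM in cortex and 61.6% to 64.1% in hippocampus, and Dclk1 25.1% to 26.4% and 20.6% to 23.1%, neither overlapping. For Dclk2 the differences were -0.26 and -0.33. In controls the Dclk2 call passed in 11 of 17 alternatives. It was lost without any 1 of the 4 control libraries, with library totals only, and by limma on log2(RPKM + 0.1). The Dclk1 call in controls was lost without cortex control replicate 1 or hippocampus control replicate 2. The Dcx call in KO passed in 11 of 17 alternatives and was lost, among others, without cortex KO replicate 1 or either library of KO hippocampus (highest adjusted p = 0.193).

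The 4 stathmins, which sequester free tubulin, all passed as lower in hippocampus in both genotypes. Stmn1, the broadly expressed founder of the family, lay at 3081 and 3525 RPKM in control cortex, 2992 and 3330.3 in KO cortex, 2184 and 2396 in control hippocampus and 2109 and 2261 in KO hippocampus. The lowest cortical library was above the highest hippocampal one, with differences of -0.60 (SE 0.11, adjusted p = 0.00419) in controls and -0.64 (SE 0.11, adjusted p = 0.00287) in KO. Stmn4 lay at 333 and 359 RPKM in control cortex, 369 and 391 in KO cortex, 237 and 245 in control hippocampus and 250.2 and 274 in KO hippocampus and differed by -0.60 (SE 0.08, adjusted p = 0.000807) and -0.64 (SE 0.08, adjusted p = 0.000501). For Stmn2, a growth-associated axonal member, the differences were -0.34 and -0.36, and for Stmn3 -0.34 and -0.30. Calls of Stmn1 and Stmn4 passed in all 17 alternatives. The Stmn2 call in controls was lost without any 1 of the 4 control libraries (highest adjusted p = 0.103) and that of Stmn3 without 3 of them, all but hippocampus control replicate 1 (highest adjusted p = 0.066). In KO the Stmn2 call passed in 14 of 17 alternatives and the Stmn3 call in 13. Both were lost without cortex KO replicate 1 and in a fit of only the 4 KO libraries. The Stmn2 call was also lost without cortex KO replicate 2. The Stmn3 call was also lost by limma on log2(RPKM + 1) and on log2(RPKM + 0.1). Their balance also differed, since Stmn1 took 64.8% to 67.2% of the summed RPKM in cortex and 61.4% to 63.6% in hippocampus.

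Gap43, a membrane protein of growing axon tips, lay at 597 and 605 RPKM in control cortex, 565 and 576 in KO cortex, 467 and 511 in control hippocampus and 386 and 467 in KO hippocampus. All 4 hippocampal libraries were below all 4 cortical ones, at -0.37 (SE 0.11, adjusted p = 0.0274) in controls and -0.53 (SE 0.11, adjusted p = 0.00534) in KO. The control value passed in 10 of 17 alternatives and was lost without any 1 of the 4 control libraries (highest adjusted p = 0.138).

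In the collapsin response mediator family, which links guidance signals to microtubules, 1 gene ran opposite to the rest. Crmp1 had the highest RPKM, at 687 and 659 RPKM in control cortex, 675 and 683 in KO cortex, 550.0 and 545 in control hippocampus and 386 and 539.8 in KO hippocampus, and differed by -0.37 (SE 0.16, adjusted p = 0.105) in controls, which did not pass, and -0.66 (SE 0.16, adjusted p = 0.0111) in KO. Dpysl4 lay at 30.0 and 31.0 RPKM in control cortex, 29.9 and 31.6 in KO cortex, 59.9 and 63.6 in control hippocampus and 50.9 and 69.2 in KO hippocampus. Every hippocampal library was above every cortical one, at 0.95 (SE 0.13, adjusted p = 0.000919) in controls and 0.86 (SE 0.13, adjusted p = 0.00136) in KO. It made up 1.74% to 2.03% of the family's summed RPKM in cortex and 3.84% to 4.90% in hippocampus. Dpysl2 passed in KO, at -0.56 (SE 0.16, adjusted p = 0.0263), and not in controls, at -0.35. Without cortex KO replicate 1 the Crmp1 call was lost (adjusted p = 0.0511), and the Dpysl2 call was lost without that library or either hippocampal KO library (highest adjusted p = 0.145). Dpysl3 and Dpysl5 passed in neither, with values from -0.40 to -0.10.

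Nefl and Nefm of the neurofilament triplet showed the largest tissue differences of the 38 members in both genotypes. The 2 genes share 1059 windows of 50 bases, as given above, and how reads there were counted is not known. Nefl, the light subunit that every neurofilament needs, lay at 44.9 and 38.7 RPKM in control cortex, 43.8 and 38.1 in KO cortex, 6.42 and 7.92 in control hippocampus and 8.91 and 4.50 in KO hippocampus. The lowest cortical library was at 38.1 RPKM and the highest hippocampal one at 8.91 RPKM, and the control level in hippocampus was 0.162 times that in cortex, at -2.62 (SE 0.28, adjusted p = 0.000229). In KO the difference was -2.71 (SE 0.28, adjusted p = 0.000179). Nefm, the medium subunit, lay at 37.5 and 34.5 RPKM in control cortex, 38.4 and 34.1 in KO cortex, 9.17 and 11.8 in control hippocampus and 10.9 and 7.73 in KO hippocampus, with differences of -1.86 (SE 0.17, adjusted p = 0.000118) in controls and -2.07 (SE 0.17, adjusted p = 6.49e-05) in KO. Nefh, the heavy subunit that accumulates in mature axons, was the least abundant member, at 1.17 and 1.15 RPKM in control cortex, 1.15 and 1.21 in KO cortex, 0.570 and 0.640 in control hippocampus and 0.640 and 0.740 in KO hippocampus, with differences of -1.02 (SE 0.14, adjusted p = 0.000755) and -0.88 (SE 0.14, adjusted p = 0.00144).

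Ina, alpha-internexin, a filament protein made early in neurons, behaved differently from the triplet. It lay at 196 and 191 RPKM in control cortex, 199.6 and 199 in KO cortex, 177 and 186 in control hippocampus and 134 and 184 in KO hippocampus. Its difference was -0.17 (SE 0.14, adjusted p = 0.405) in controls, which did not pass, and -0.43 (SE 0.14, adjusted p = 0.0391) in KO, where it passed in 5 of 17 alternatives. Of the summed RPKM of the 4 filament genes, Ina took 70.1% to 73.0% in cortex and 86.8% to 93.4% in hippocampus. Nefl took 14.0% to 16.1% in cortex and 2.28% to 5.75% in hippocampus, and Nefm 12.5% to 13.6% and 3.92% to 7.04%. None of these 3 ranges overlapped between the tissues.

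**Figure D3:**
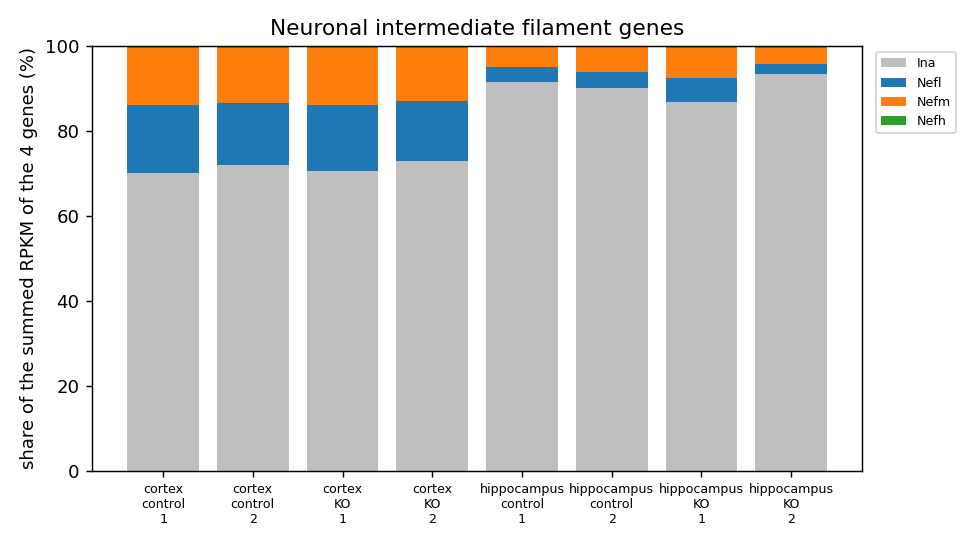
Share of Ina, Nefl, Nefm and Nefh in their summed RPKM (percent, stacked from 0 to 100) in each of the 8 libraries. Ina fills 70.1% to 73.0% of the bar in cortex and 86.8% to 93.4% in hippocampus, and Nefh, at most 0.444%, is too thin to see.

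Of the kinesin-1 heavy chains, motors that carry cargo towards the axon tip, 0 of 3 passed between the tissues with edgeR in either genotype. At an unadjusted p under 0.05 the count was 0 in controls and 1 in KO (Kif5a), DESeq2 called 0 and 1, and limma on log2(RPKM + 1) called 0 and 0. Kif5c, with the highest RPKM of the 3, lay at 144 and 132 RPKM in control cortex, 149 and 128 in KO cortex, 154 and 134 in control hippocampus and 135 and 138 in KO hippocampus, with overlapping tissues and differences of -0.02 (SE 0.13, adjusted p = 0.946) and -0.13 (SE 0.13, adjusted p = 0.46). For Kif5a, the neuronal heavy chain, the differences were -0.18 and -0.30, and for Kif5b, the ubiquitous one, 0.03 and 0.04.

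Whether loss of Srrm4 changed the level of these genes was tested next, and no member passed in either tissue. In cortex 0 of 38 passed with edgeR, with 0 also at an unadjusted p under 0.05 and 0 by DESeq2 and by limma. The background was 0.0186% of genes, 3 of 16111. Members split evenly, 19 higher and 19 lower in KO, with a median of 0.002. The number lower was 9 without cortex control replicate 1, 10 without cortex KO replicate 2, 27 without cortex KO replicate 1 and 31 without cortex control replicate 2. In hippocampus 2 members (Tuba4a and Tubb2a) were at an unadjusted p under 0.05, as were 614 of all 16111 genes. With edgeR, DESeq2 and limma 0 members passed in hippocampus, against a background of 0.0248% of genes that passed with edgeR. There 35 of 38 members had a negative value, with a median of -0.14, where 51.4% of all genes were negative with a median of -0.004.

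The lean in hippocampus depended on the library. Without hippocampus KO replicate 1 28 of 38 members were negative, against 54.8% of all genes, and the members' median was -0.08. Without hippocampus control replicate 1 that median was also -0.08. Libraries of the same number were set side by side as well, although the labels do not tie them to shared embryos. Between the 2 hippocampal replicates 1, 33 of 38 members were lower in KO, against 49.2% of all genes. The members' median difference was -0.27 in log2 CPM. Between the replicates 2, 23 of 38 members were lower, against 52.1% of all genes, with a median of -0.02. The cortical medians were -0.01 and -0.004. Non-overlapping groups were found for 17 of 38 members in hippocampus, against 27.2% of all genes, and for 9 of 38 in cortex, against 20.6%.

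**Figure D4:**
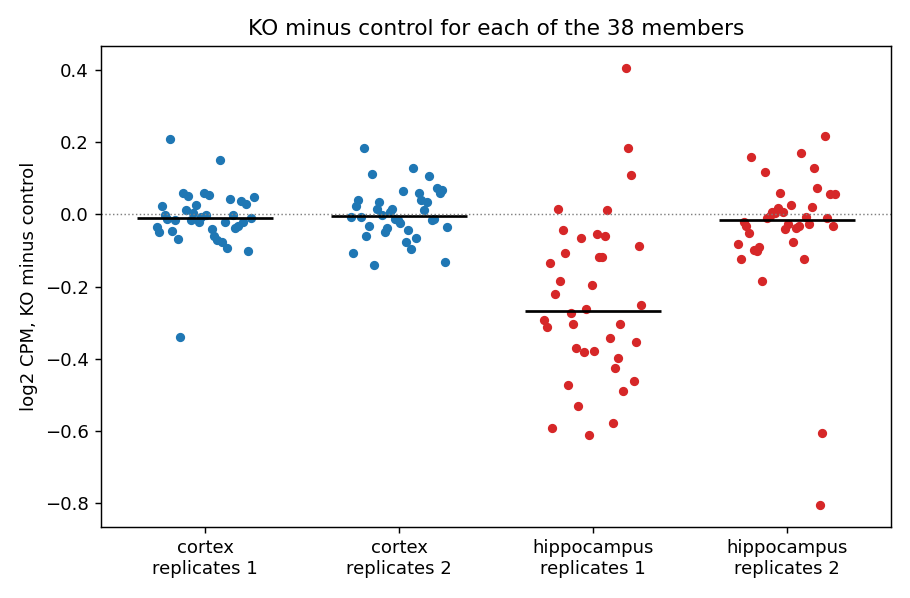
Difference in log2 CPM between the KO and control libraries of the same replicate number, for each of the 38 members (points, in order of role) with the median (line), in cortex (blue) and hippocampus (red). The hippocampal replicates 1 are centred at -0.27 and the other 3 pairs at -0.02 to -0.004.

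Other measures moved with hippocampus KO replicate 1. Besides its mitochondrial and ribosomal protein shares, red blood cell markers summed to 101.0 CPM there against 44.7 to 76.9 CPM in the other libraries. None of the 7 markers was at 0 in all libraries. Their sums also went with genotype in both tissues. They were 76.9 and 65.9 CPM in KO cortex against 47.2 and 58.4 CPM in control cortex. In hippocampus they were 101.0 and 61.4 CPM in KO against 44.7 and 54.3 CPM in controls. Interneuron markers went with the KO group in hippocampus rather than with hippocampus KO replicate 1 alone. They summed to 433 and 494 CPM in KO and 508.5 and 555 CPM in controls, and 9 of 10 were negative in KO with a median of -0.29, 0 passing and 5 at an unadjusted p under 0.05. Hippocampus control replicate 2 stood apart in the sum of 6 choroid plexus markers, at 206 CPM there and 26.6 to 46.2 CPM in the other hippocampal libraries. Ttr lay at 152 RPKM there and 13.4 to 26.8 RPKM in the other hippocampal libraries. Otx2 was instead highest in hippocampus KO replicate 1, at 4.99 RPKM against 4.58 in hippocampus control replicate 2. Y-linked genes, which mark sex, also separated the replicates 2 of the genotypes. The 4 genes summed to 144 and 148 CPM in replicate 2 of the controls and 0.319 and 0.412 CPM in replicate 2 of the KO. Every replicate 1, of either genotype, lay between these values, at 25.4 to 49.8 CPM. Whether a replicate 1 pooled embryos of both sexes was not tested. The part of these measures in the members' values was not tested.

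Of single members, Tuba4a had the most negative KO value in both tissues, without passing. Its difference was -0.24 (SE 0.12, 95% interval -0.51 to 0.02, adjusted p = 1) in cortex and -0.34 (SE 0.12, 95% interval -0.61 to -0.06, adjusted p = 0.992) in hippocampus. Over both tissues it was -0.29 (SE 0.08, 95% interval -0.47 to -0.11, adjusted p = 0.912). Intervals over both tissues take all libraries as independent, and may be too narrow if cortical and hippocampal libraries share embryos. The Tuba4a level was lower in KO between the libraries of each number in both tissues, by -0.34 and -0.14 in cortex and -0.47 and -0.18 in hippocampus (log2 CPM). Stk16, which overlaps Tuba4a on the opposite strand, differed by 0.03 and -0.02. Tubb2a differed by -0.22 (SE 0.08, 95% interval -0.41 to -0.03, adjusted p = 0.992) in hippocampus, by -0.08 in cortex and by -0.15 (SE 0.06, 95% interval -0.28 to -0.02, adjusted p = 1) over both tissues.

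The hippocampal values of Mapt, Tubb4a and Gap43 came next by p. For Mapt the difference was -0.30 (SE 0.17, 95% interval -0.70 to 0.09, adjusted p = 0.992), with -0.61 between the replicates 1 and 0.01 between the replicates 2. For Tubb4a it was -0.30 (SE 0.14, 95% interval -0.63 to 0.03, adjusted p = 0.992), with -0.59 and -0.03. Both gaps lay in replicate 1. Gap43 was lower in both pairs, by -0.34 and -0.12, with a difference of -0.23 (SE 0.11, 95% interval -0.47 to 0.02, adjusted p = 0.992). In the cortical pairs Gap43 stood at -0.08 and -0.07, and over both tissues at -0.15 (SE 0.07, 95% interval -0.31 to 0.02, adjusted p = 1).

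Over both tissues 4 of the 38 members had a positive value in KO. Stmn4 was higher in KO in all 4 pairs of libraries, by 0.15 and 0.13 in cortex and 0.01 and 0.17 in hippocampus, without passing, at 0.14 (SE 0.08, 95% interval -0.05 to 0.32, adjusted p = 1) in cortex and 0.12 (SE 0.05, 95% interval -0.001 to 0.23, adjusted p = 1) over both tissues. Tubb6 lay at 4.55 and 4.69 RPKM in control cortex, 5.26 and 5.32 in KO cortex, 5.61 and 5.49 in control hippocampus and 5.93 and 6.09 in KO hippocampus, which is low, and differed by 0.20 (SE 0.10, 95% interval -0.03 to 0.43, adjusted p = 1) in cortex and 0.14 (SE 0.07, 95% interval -0.01 to 0.29, adjusted p = 1) over both tissues. The remaining cortical value among the 5 with the smallest p was that of Stmn3, -0.08 (SE 0.07, 95% interval -0.25 to 0.08, adjusted p = 1).

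The members with the highest level in each role gave small values in KO. In cortex they were 0.02 for Tubb2b, -0.05 for Tuba1a, 0.04 for Tubg1, -0.01 for Mapt, 0.02 for Dcx, -0.06 for Stmn1, -0.07 for Gap43, 0.02 for Crmp1, 0.04 for Ina and 0.01 for Kif5c. Of these 10, 6 changed sign when 1 library was left out (Tubb2b, Mapt, Dcx, Stmn1, Crmp1 and Kif5c). The hippocampal values for the same genes ran from -0.30 (Mapt) to -0.07 (Tubg1). Nefl and Nefm went opposite ways in the 2 hippocampal pairs, Nefl by 0.41 and -0.80 and Nefm by 0.18 and -0.61, so their KO values of -0.11 and -0.19 average over a spread larger than themselves.

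The precision of these values bounds what could have been seen. In cortex the 95% intervals of 35 of 38 members lay within 0.5 on the log2 scale either side of 0, and in hippocampus those of 26 did. The widest reached from -0.62 to 0.57 for Nefl in cortex and down to -0.80 for Map1b in hippocampus. A missing call therefore leaves room for changes inside those limits.

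Over both tissues 0 of 38 members passed with edgeR, DESeq2 and limma, against a background of 0.0621% of genes that passed with edgeR. At an unadjusted p under 0.05 there were 2 members and 713 of all 16111 genes. Of the 38 members, 34 were negative, with a median of -0.08. The KO effect was also compared between the tissues by the genotype by tissue interaction, in which 0 of 38 members and 0% of all genes passed with edgeR, with 0 members at an unadjusted p under 0.05 and 0 by DESeq2 and limma. The members with the smallest p were Tubb4a at -0.31 (SE 0.20, 95% interval -0.78 to 0.15, adjusted p = 1), Ina at -0.26 (SE 0.20, 95% interval -0.71 to 0.19, adjusted p = 1) and Crmp1 at -0.29 (SE 0.22, 95% interval -0.79 to 0.22, adjusted p = 1). All 3 had a hippocampal KO replicate 1 below every other library, with Crmp1 at 386 RPKM there against 539.8 to 687 elsewhere.

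Other genes of the same pathways were set beside the members from lists of 124 tested genes (126 listed). In KO against control 0 of the 124 passed in cortex, hippocampus or both tissues with edgeR, DESeq2 or limma, with 0, 4 and 3 at an unadjusted p under 0.05, and 60 of 124 were negative in cortex (48.4%, against 50.3% of all genes). In hippocampus 88 of 124 were negative (71%, against 51.4% of all genes), and 79 of 123 without hippocampus KO replicate 1 (64.2%, against 54.8%).

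Between the tissues the counts of each list stand beside 14.9% of all genes lower and 19% higher in controls, and 18.8% and 21.2% in KO. No difference between lists was tested. Tubulin folding genes, the chaperonin subunits and cofactors that make tubulin ready to assemble, gave 0 of 14 calls in either genotype with edgeR, DESeq2 and limma, and 0 at an unadjusted p under 0.05. Their medians were -0.02 in controls and -0.004 in KO, and the most abundant, Tbca and Cct5, stood at -0.14 and -0.02 in controls. Of 18 genes of microtubule ends, 5 passed as lower in hippocampus in controls and 8 in KO, and 0 as higher. Mapre2, an end-binding protein, led them at -0.66 (SE 0.10, adjusted p = 0.00149) in controls and -0.85 (SE 0.10, adjusted p = 0.000386) in KO.

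Axonal transport motors passed as lower for 6 of 23 genes and higher for 2 in controls, and for 12 and 2 in KO. Dync1i1, a dynein intermediate chain of neurons, differed by -1.21 (SE 0.07, adjusted p = 1.38e-05) in controls and -1.19 (SE 0.07, adjusted p = 1.31e-05) in KO. Nde1, a dynein partner of dividing progenitors, was higher, at 0.90 (SE 0.10, adjusted p = 0.000245) and 0.97 (SE 0.10, adjusted p = 0.000155). Of 15 genes of the growth cone membrane and actin, 5 were lower and 1 higher in controls and 7 lower and 0 higher in KO. Ablim1, an actin-binding protein, was lowest in controls at -0.91 (SE 0.07, adjusted p = 5.05e-05), with -0.95 (SE 0.07, adjusted p = 3.84e-05) in KO. Gprin1, which promotes neurite growth, was lowest in KO at -1.03 (SE 0.12, adjusted p = 0.000393), with -0.76 (SE 0.12, adjusted p = 0.00193) in controls.

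Tubulin modifying enzymes were lower for 4 of 17 and higher for 1 in controls, and 7 and 1 in KO. Among them, Vash2, which removes the last tyrosine of alpha tubulin, differed by -0.59 (SE 0.09, adjusted p = 0.0011) and -0.65 (SE 0.09, adjusted p = 0.000638), and Ttll5, a glutamylase, by 0.50 (SE 0.08, adjusted p = 0.0022) and 0.48 (SE 0.08, adjusted p = 0.00259). For nucleation and severing 2 of 11 were lower and 1 higher in controls, and 3 and 1 in KO. The severing enzyme gene Fign had a low mean of 0.496 RPKM and differed by -3.57 (SE 0.22, adjusted p = 1.54e-05) and -3.50 (SE 0.21, adjusted p = 1.58e-05), while Nedd1, which brings gamma tubulin to centrosomes, was higher at 0.84 (SE 0.12, adjusted p = 0.00119) and 1.05 (SE 0.12, adjusted p = 0.000352). Other microtubule-associated proteins were lower for 5 of 12 and higher for 2 in controls, and 6 and 2 in KO, led by the doublecortin-like kinase Dclk3 at -3.15 (SE 0.13, adjusted p = 3.90e-06) and -3.65 (SE 0.13, adjusted p = 2.11e-06). Of 6 tested other tubulins, 0 were lower and 1 higher in controls, and 1 and 1 in KO, where the lowest value was -2.29. Tubd1, a tubulin of centrioles, was higher at 0.64 (SE 0.10, adjusted p = 0.00159) and 0.85 (SE 0.10, adjusted p = 0.000348).

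Of 8 other intermediate filament genes, 3 (Gfap, Vim and Nes) were higher and 1 (Synm) lower in hippocampus in each genotype, and 4 did not pass. Gfap of astrocytes and neural stem cells differed by 3.24 (SE 0.13, adjusted p = 3.82e-06) in controls and 3.38 (SE 0.13, adjusted p = 2.69e-06) in KO, and Vim of radial glia by 1.67 (SE 0.09, adjusted p = 9.87e-06) and 1.74 (SE 0.09, adjusted p = 7.92e-06). These 2 genes and Nes also stand in the marker lists of astrocytes and radial glia.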

How the data were processed

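Per the labels' protocols, messenger RNA of the 4 groups went into standard TruSeq libraries. Bowtie and the build mm9 are named in the submitters' processing notes. Counting rule, strandedness and annotation were not given in the sources used here. A deposited table holds, per Ensembl gene, a whole-number read count and an RPKM value made by the authors. The 1114 RPKM cells with the text "ne" were treated as missing, and blank counts, which never stood beside an RPKM above 0, as 0. The 12 samples share 8 tables, because runs 1 and 2 of every replicate 1 were deposited together; each table was used as 1 library.

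Counts were tested with edgeR 4.0.16 in R 4.3.3 (glmQLFit and glmQLFTest, TMM scaling, filterByExpr with a minimum count of 10 and a minimum total of 15, Benjamini-Hochberg over 16111 genes, two-sided). All 8 libraries of the 4 groups entered 1 fit, so that the groups share an estimate of the spread. For KO against control over both tissues, an additive model was fitted. It treated cortical and hippocampal libraries as if none shared an embryo, which the labels do not say. If some did, the SEs and intervals over both tissues may be too narrow. Log2 CPM used a prior count of 2. Alternatives were DESeq2 1.42.0, limma 3.58.1 on log2(RPKM + 1) and log2(RPKM + 0.1), other scalings and filters, a replicate block, and leaving out each library. Intervals and SEs cover these libraries only, and a floor of 3 counts corresponds to 0.0214 to 0.0515 CPM.

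Symbols, transcripts and the printed sequences come from GENCODE M21 (GRCm38), which differs from mm9, so only sequence and names were used with the counts. The members, the pathway and marker lists and the tests were chosen with earlier results of these data known. Full statistics are given for the member with the highest mean RPKM of each role, for passing members in a tissue comparison up to the 8 largest differences in each direction, for the 5 smallest p in KO against control and the 3 smallest in the interaction, for up to 3 passing genes of each pathway list, and for Srrm4; other members are given by value. Stk16 was added after its overlap with Tuba4a was seen.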

Additional observations from a re-analysis of the deposited data

How the results depend on the processing

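With 2 libraries a group, leaving out 1 leaves a lone library that is assumed to vary like the other groups. Members called between the tissues kept their sign in every alternative. None of the values that changed sign had passed. Of the 38 members, 27 changed sign in KO cortex under at least 1 alternative, 15 in KO hippocampus, 12 over both tissues, 18 in the interaction, and 5 and 4 between the tissues in controls and KO. Leaving out 1 library gave, in KO cortex, -0.021 to 0.066 for Tubb2b, -0.18 to 0.16 for Mapt, -0.072 to 0.11 for Dcx, -0.14 to 0.018 for Stmn1, -0.033 to 0.066 for Crmp1 and -0.12 to 0.13 for Kif5c. It gave -0.24 to 0.078 for Tubg1 and -0.23 to 0.030 for Kif5c in KO hippocampus, -0.29 to 0.034 for Mapt and -0.15 to 0.11 for Kif5c between the tissues in controls, and -0.15 to 0.17 for Tubg1 and -0.25 to 0.0042 for Kif5c in KO. Between the tissues, Kif5c in controls was 0.057 with library totals only, 0.00014 with at least 1 RPKM in 2 libraries, 0.054 with limma on log2(RPKM + 1) and 0.055 on log2(RPKM + 0.1), and Tubg1 in KO was -0.014 with DESeq2 and -0.013 with its size factors. Members called in KO against control (cortex, hippocampus, both tissues) and in the interaction stayed at 0 under every alternative. Leaving out 1 library gave 9 to 21 members called between the tissues in controls and 15 to 26 in KO, and 3231 to 6000 and 4156 to 6364 of all genes. In cortex, 9 to 31 members were negative in KO, depending on the library left out. Of all genes, KO against control called 2 to 6 in hippocampus when 1 library was left out. DESeq2 called 11 genes in cortex, 18 in hippocampus and 37 over both tissues, against 3, 4 and 10. In hippocampus 2 were called with at least 1 RPKM in 2 libraries, with limma on log2(RPKM + 1), and with only the 4 libraries compared. Over both tissues, 4 genes were called on means of both tissues per genotype and replicate number. The cause of these shifts was not tested. The groups share replicate numbers, but 2 numbers cannot show pairing. Libraries of the same number deviated together over all genes (r from 0.10 to 0.38 between groups). Over the 38 members r was 0.86 between the cortical groups, and 0.60 and 0.52 between control hippocampus and control and KO cortex. For KO hippocampus it was 0.17 and 0.25 with control and KO cortex, and -0.14 with control hippocampus. The main fit had no replicate term, so a difference shared by replicate number entered its SEs and intervals. With the replicate block, 22 genes were called over both tissues and no member; between the tissues 23 members were called in controls and 28 in KO.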
